A study of Mus musculus with 2 samples.

Results

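Gasdermins and inflammatory caspases were described in colitis-associated colorectal cancers (CACs) of mice by 10 genes, chosen by name out of 32291 in the table. They are *Gsdmc*, *Gsdmc2*, *Gsdmc3*, *Gsdmc4*, *Gsdmd* and *Gsdme*, the caspases *Casp1* and *Casp4*, the adaptor *Pycard* and the sensor *Nlrp3*. All 10 were found in the table. The *Gsdmc* genes were listed because they mark a group of epithelial cells in these same data, so their pattern over epithelial cells is a description and was not tested.

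Gasdermins are proteins that open pores in the plasma membrane once a protease has removed their inhibitory end, and such pores release interleukin-1 cytokines and can kill the cell by pyroptosis. In the classical pathway, NLRP3 senses damage, binds the adaptor ASC (the product of *Pycard*) and thereby activates caspase-1, which cuts gasdermin D and pro-interleukin-1β. Caspase-11, the product of mouse *Casp4*, senses bacterial lipopolysaccharide in the cytosol and also cuts gasdermin D. Mice carry a cluster of *Gsdmc* copies, known for expression in the intestinal epithelium.

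Tumors had been induced with azoxymethane (AOM, 10 mg/kg) and 3 periods of dextran sodium sulfate (DSS) in the drinking water, 2.5% in the first periods and 2% in the last. Mice were 6 to 10 weeks old at the start and were sacrificed on day 110. Mice labelled Mir34a_F/F carry floxed *Mir34a* alleles and no Cre, and mice labelled Mir34a_Mye_KO (*Mir34a* ΔMye) carry the same alleles with Cre under the control of *LysM*, a gene of macrophages, monocytes and neutrophils, so that the deletion is aimed at myeloid cells. For each genotype, 6 to 8 tumors of 3 mice were pooled into 1 library. There are therefore no replicates, no p-value is given, and genotype cannot be told apart from mouse, pool or library.

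The libraries held 20312 cells with 147109016 UMIs (*Mir34a* F/F) and 18571 cells with 193133086 UMIs (*Mir34a* ΔMye), where a UMI (unique molecular identifier) stands for 1 captured mRNA molecule. The median cell had 4787 and 7716 UMIs. 96 barcodes occurred in both libraries, and without them no value of a gene moved beyond its counting interval. The cell types of the deposited annotation were used. Of the 44 fixed markers, 43 had their highest mean in the cell type they stand for, the exception being *Ms4a2*, a marker of basophils that was highest in mast cells. The targeted gene could not be used to check the labels: the *Mir34a* primary transcript had 133 UMIs in the macrophages labelled *Mir34a* F/F and 462 in the macrophages labelled *Mir34a* ΔMye (levels of 0.0723 and 0.111 UMIs per 10000), and its listed hairpin, stem-loop and mature forms had 0 UMIs in macrophages, neutrophils and epithelial cells of either library.

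Below, a level is a gene's UMIs per 10000 in each cell, averaged over the cells of a type, and pairs of values are given with *Mir34a* F/F first. Intervals are 95% intervals that cover counting error only. A log2 ratio is *Mir34a* ΔMye over *Mir34a* F/F, and a gene was counted as higher or lower when the ratio reached 1.5-fold and its mean over the libraries was at least 0.05. In counts of mRNA from whole cell types, a lower mean can stem from fewer expressing cells or from fewer molecules per cell, and shares of cells are given where this matters.

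The *Gsdmc* copies lie side by side on the minus strand of mouse chromosome 15 (mm10), and how far 3′ reads can separate them depends on their sequences. *Gsdmc* spans chr15:63775968-63808759, *Gsdmc2* chr15:63824346-63845177, *Gsdmc3* chr15:63857724-63878558 and *Gsdmc4* chr15:63891264-63912297, so that the cluster takes up 136330 bases. The coding sequences of *Gsdmc2* and *Gsdmc3* are 97.1% identical, those of *Gsdmc2* and *Gsdmc4* 93.7%, and those of *Gsdmc3* and *Gsdmc4* 93.8%, whereas *Gsdmc* is 86.7% to 87.5% identical to the other copies. Over the last 500 bases of the transcripts, *Gsdmc* is 94.2% to 96.4% identical to the other copies, beside 96.5% for *Gsdmc2* and *Gsdmc3*. The last coding bases up to the stop codon are shown because they show how alike the copies are near the end of the coding part, with capitals at bases that differ from *Gsdmc4* in the alignment.
Gsdmc, chr15:63776677-63776727, minus strand: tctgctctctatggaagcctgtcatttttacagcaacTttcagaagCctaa
Gsdmc2, chr15:63824878-63824967, minus strand: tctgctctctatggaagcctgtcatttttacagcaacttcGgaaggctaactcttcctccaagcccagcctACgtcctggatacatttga
Gsdmc3, chr15:63858271-63858360, minus strand: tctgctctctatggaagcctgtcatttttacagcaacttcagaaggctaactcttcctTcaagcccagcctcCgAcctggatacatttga
Gsdmc4, chr15:63891804-63891893, minus strand: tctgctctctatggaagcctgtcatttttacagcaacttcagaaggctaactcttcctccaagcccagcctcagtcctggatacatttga
Over these stretches, 2 bases of *Gsdmc* and 3 bases each of *Gsdmc2* and *Gsdmc3* differ from *Gsdmc4*. The stretch has 51 bases in *Gsdmc*, which reaches its stop codon earlier, and 90 in the other copies. The capital T of *Gsdmc* is a base that *Gsdmc4* lacks in the alignment. These counts therefore do not rank the copies by likeness.

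Windows of 100 bases from the last 500 bases of each transcript were compared among the copies. Of 401 windows, 401 of *Gsdmc4* (100%) occurred in no other copy, as did 376 of *Gsdmc* (93.8%), 345 of *Gsdmc2* (86.0%) and 344 of *Gsdmc3* (85.8%). The windows that were not unique were shared between *Gsdmc2* and *Gsdmc3* or between *Gsdmc* and *Gsdmc2*. The split of UMIs between *Gsdmc2* and *Gsdmc3* is therefore less certain than that of *Gsdmc4*, and the sum over the 4 copies is given as well. How reads shared by copies were treated is not given in the sources used here, and if they were dropped, *Gsdmc2*, *Gsdmc3* and the sum would be undercounted relative to *Gsdmc4*.

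The remaining genes lie elsewhere, and the caspases are neighbours. *Gsdmd* is at chr15:75862327-75867408 (plus strand), *Gsdme* at chr6:50188888-50263862 (minus), *Pycard* at chr7:127989708-127993867 (minus) and *Nlrp3* at chr11:59541568-59566956 (plus). *Casp1* (chr9:5298517-5307265) and *Casp4* (chr9:5308828-5336783) follow each other on the plus strand with 1562 bases between them.

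The 10 genes differed widely in how many molecules were caught. Over both libraries, *Nlrp3* had 45037 UMIs, *Casp4* 38435, *Gsdmd* 34419, *Pycard* 27175, *Casp1* 9872, *Gsdmc2* 7783, *Gsdmc4* 7661, *Gsdme* 3816, *Gsdmc3* 652 and *Gsdmc* 15. *Gsdmc* itself was thus near the limit of detection, with 3 and 5 UMIs in epithelial cells and 0 in T cells, B cells, mast cells and dendritic cells. With a fixed limit of 3 cells for a count of 0, rather than an exact interval, the 3088 T cells of the *Mir34a* F/F library allow a share of cells with a UMI, at this depth, of up to 0.0972%. *Gsdmc* and *Gsdmc3* did not reach the minimum mean in any of the 11 cell types and were not compared between the libraries.

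**Figure D1:**
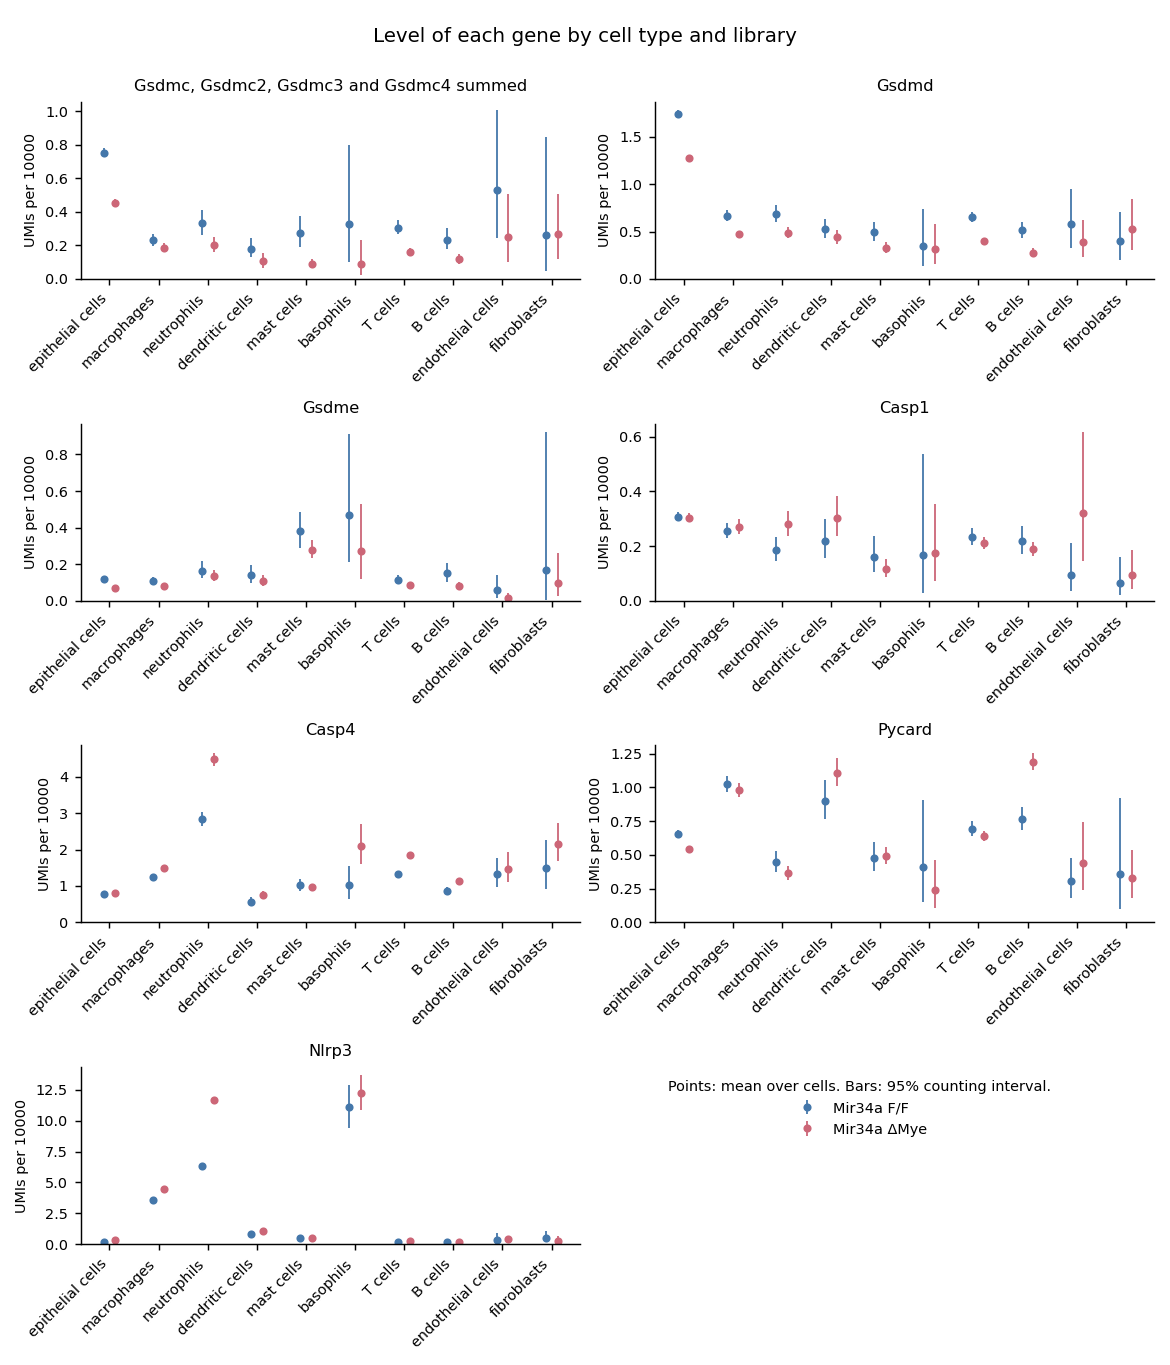
Level of each gene (y axis, mean over cells of UMIs per 10000) in 10 cell types (x axis) of the *Mir34a* F/F library (blue) and the *Mir34a* ΔMye library (red), with 95% counting intervals as bars. Erythroid cells (106 and 30 cells) are left out of the plot. *Nlrp3* stood at 11.1 and 12.2 in basophils and at 6.33 and 11.6 in neutrophils, whereas *Gsdmd* had its highest level, 1.75 and 1.28, in epithelial cells.

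Among the executioner genes, the summed *Gsdmc* copies had a level of 0.751 (0.726 to 0.778) in epithelial cells of the *Mir34a* F/F library, from 9385 UMIs. In the *Mir34a* ΔMye library it was 0.453 (0.431 to 0.476), from 4347 UMIs. The log2 ratio was −0.73 (−0.82 to −0.64). *Gsdmc2* (0.383 and 0.219) and *Gsdmc4* (0.337 and 0.207) had log2 ratios of −0.81 (−0.93 to −0.68) and −0.70 (−0.83 to −0.58). The libraries also differed in quality, with a median mitochondrial share of 11.2% and 18.3% in epithelial cells. Another denominator left out mitochondrial, immunoglobulin and ribosomal RNA-like genes, and also *Lars2*, *Cmss1*, *Camk1d* and *Cdk8*. With it the log2 ratio of the sum was −0.43, and *Gsdmc2*, *Gsdmc4* and *Gsdme* no longer reached 1.5-fold. *Gsdmc3* was at 0.0303 and 0.0259. Endothelial cells (0.529 and 0.250, from 26 and 11 UMIs), erythroid cells (0.532 and 0.823, from 13 and 5 UMIs) and fibroblasts (0.264 and 0.266, from 7 and 11 UMIs) had levels of the sum whose intervals overlapped those of epithelial cells. In the *Mir34a* F/F library this also held for basophils (0.330, from 6 UMIs). All of these levels rest on few molecules.

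*Gsdmc* UMIs outside epithelial cells were set beside those of epithelial marker mRNAs. In T cells, B cells, macrophages, neutrophils, mast cells and dendritic cells, *Gsdmc2* was at 15.7% to 41.9% of its epithelial level, *Gsdmc4* at 19.2% to 47.1% and *Gsdmd* at 21.2% to 39.5%. The corresponding ranges were 18.7% to 34.7% for the adhesion molecule *Epcam*, 19.4% to 41.7% for the keratin *Krt8*, 21.1% to 38.3% for E-cadherin (*Cdh1*) and 19.7% to 36.5% for the claudin *Cldn7*. All 4 epithelial markers were thus present in immune cells, over a range that overlapped widely with that of the gasdermins. *Gsdmc4* lay above all 4 markers in T cells, macrophages (32.3% and 45.1%) and neutrophils (45.9% and 47.1%) of both libraries and in B cells (28.1%) of the *Mir34a* ΔMye library. *Gsdmc2* (30.4% and 36.1%) and *Gsdmd* (38.1% and 36.7%) lay above them in macrophages of both libraries, and *Gsdmc2* also in *Mir34a* F/F T cells (41.8%) and *Mir34a* ΔMye B cells (24.7%) and neutrophils (41.9%). *Gsdmd* did so also in dendritic cells of both libraries (29.99% and 34.4%) and in *Mir34a* ΔMye neutrophils (37.8%), and in *Mir34a* ΔMye B cells it was level with *Epcam* at 21.2%. No expression of *Gsdmc2*, *Gsdmc4* or *Gsdmd* by immune cells is read from these levels, nor a difference between the libraries there, and the part of epithelial mRNA in them was not tested.

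**Figure D2:**
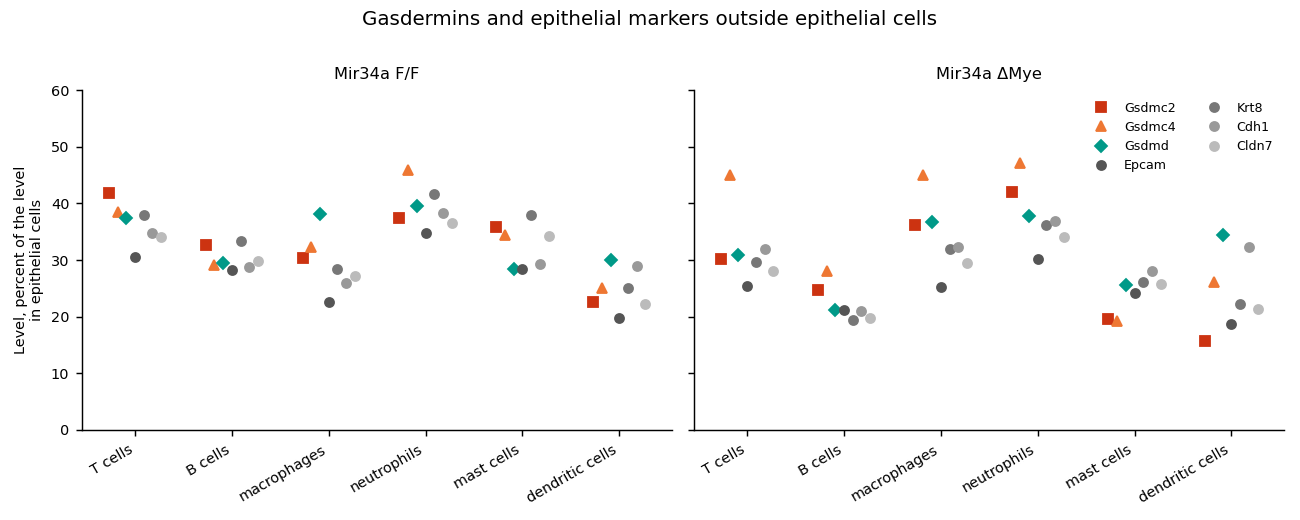
Level of *Gsdmc2*, *Gsdmc4* and *Gsdmd* (coloured symbols) and of 4 epithelial markers (grey circles) in 6 other cell types, as percent of the level in epithelial cells (y axis), for the *Mir34a* F/F library (left) and the *Mir34a* ΔMye library (right). The gasdermins lay between 15.7% and 47.1% and the markers between 18.7% and 41.7%.

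Detection in single cells was compared between epithelial cells and T cells. Cells were thinned at random to 1000 UMIs so that depth was equal. A UMI of a *Gsdmc* copy was then found in 5.40% (4.98 to 5.84) and 3.86% (3.49 to 4.27) of epithelial cells, and in 2.66% (2.12 to 3.30) and 1.55% (1.12 to 2.10) of T cells, taken here as the comparison. Without thinning, the shares in epithelial cells were 20.1% and 17.0%. The shares in epithelial cells were above those in T cells in both libraries. This is a description only, since the *Gsdmc* genes were chosen because they mark epithelial cells here. In neutrophils the thinned shares were 3.41% (2.39 to 4.71) and 2.32% (1.51 to 3.41). In the few erythroid cells they were 4.65% and 10%, from 4 and 3 cells.

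A small number of cells held a large part of the *Gsdmc* molecules. In the *Mir34a* F/F library, 213 epithelial cells had 10 or more *Gsdmc* UMIs and held 57.1% of them, with up to 150 in a cell. In the *Mir34a* ΔMye library, 85 such cells held 34.0%, with up to 44 in a cell. These cells were deep, with medians of 21210 and 20090 UMIs in all, and 203 of 213 and 72 of 85 contained both *Gsdmc2* and *Gsdmc4*. Without them, the level of the sum was 0.518 and 0.375, a log2 ratio of −0.46 in place of −0.73. For *Gsdmd*, by comparison, cells with 10 or more UMIs numbered 69 and 233 and held 5.85% and 22.2% of the UMIs in epithelial cells. Its level went the other way, at 1.75 and 1.28. The cut of 10 is on raw UMIs and depends on depth, and the median epithelial cell had 5315.5 and 6623 UMIs. The numbers of such cells, and the ratio without them, are therefore not read as a difference between the libraries.

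The copies were also found in the same cells after thinning. *Gsdmc4* had a UMI in 10.9% (7.80 to 14.7) and 9.22% (5.64 to 14) of epithelial cells with a *Gsdmc2* UMI, against 2.20% and 1.63% of those without. In T cells 1 of 43 (2.33%, 0.0589 to 12.3) and 1 of 20 (5%, 0.127 to 24.9) cells with *Gsdmc2* had *Gsdmc4* as well, against 1.11% and 0.763% of those without, which is too few to set apart from epithelial cells. *Gsdmd* did not go along with *Gsdmc2*: it was found in 14.5% and 11.7% of epithelial cells with *Gsdmc2* and in 14.7% and 11% of those without.

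Epithelial cells were clustered again without the 10 genes and the other genes of the pathway, and 8 clusters had at least 50 cells in each library. A further cluster had 123 cells in the *Mir34a* F/F library, with a *Gsdmc* sum of 1.36, and 1 cell in the other, and was not compared. Among the 8, the sum of the *Gsdmc* copies was highest in the *Mir34a* F/F library in cluster 1 (2944 and 2180 cells), a differentiated colonocyte-like cluster led by *Clca4b*, *Saa1* and *Krt20*, with levels of 1.26 and 0.547. In the *Mir34a* ΔMye library it was highest in the cycling-like cluster 2 (0.870 and 0.662), and clusters 5 (0.585), led by immunoglobulin genes, and 8 (0.572) also lay above cluster 1. Cluster 2 was led by *Mki67*, *Top2a* and also *Peak1* and *Lpo*. At a resolution of 1.0 the cluster led by *Hist1h1b*, *Top2a* and *Mki67* was at 0.331 and 0.220 and another, led by *Edn1*, *Peak1* and *Lpo* and with cycling markers below the other cells, at 0.888 and 0.722, so the level of cluster 2 is not read as one of cycling cells. It was 0.246 and 0.155 in the stem-like cluster 4, which was led by *Dkk2*, *Lgr5* and *Axin2*. Goblet-like cells (cluster 7, led by *Defa21*, *Tff3* and *Muc2*) had 0.363 and 0.173. Cluster 6, which was left unnamed and was led by *Ptn* and *Mt4*, had 0.164 and 0.196. The level was higher in the *Mir34a* ΔMye library in 2 of 8 clusters, cluster 6 and the cluster 8 led by *Il17a* and *Icos*, which are genes of T cells.

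The cells with 10 or more *Gsdmc* UMIs were spread over cluster 1 (141 of 213 and 51 of 85 cells) and cluster 2 (49 and 30 cells). A finer clustering, at a resolution of 1.0, set apart 125 and 87 cells led by *Sycn*, *Car4*, *Tgm3*, *Muc3* and *Guca2a*, genes of mature colonocytes at the luminal surface. In these cells the sum of the *Gsdmc* copies reached 4.59 and 1.76, of which *Gsdmc4* made up 3.20 and 1.23, *Gsdmc2* 1.13 and 0.389 and *Gsdmc3* 0.252 and 0.138. The cluster was 1.08% and 0.882% of epithelial cells but held 10.7% and 5.87% of their *Gsdmc* UMIs, and 52.8% and 43.7% of its cells had at least 1 UMI. Only 30 of the 213 and 10 of the 85 cells with 10 or more *Gsdmc* UMIs lay in it. More *Gsdmc* UMIs, 4123 and 1484, lay in another cluster of this finer clustering, with 1485 and 956 cells and levels of 1.91 and 0.933. Clustering without centring the libraries found 209 cells like the *Sycn*-led ones, of which 187 were shared with these 212.

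The genes that differed most between epithelial cells with and without *Gsdmc* were named next. After thinning, 593 of 10987 and 375 of 9705 epithelial cells had a *Gsdmc* UMI. Their 10 leading genes were *2610528A11Rik* (0.566 in cells without and 1.53 in cells with a UMI of the *Mir34a* F/F library, 0.472 and 1.52 in the other), *Defa21*, *Mgst3*, *Tspan1*, *Pdzk1ip1*, *Pof1b*, *Car2*, *Fxyd4*, *Ckmt1* and *S100a16*. *Mgst3*, a microsomal glutathione transferase, went from 1.78 to 4.23 and from 1.18 to 2.19. The 10 genes most reduced in these cells were *Cadps*, *Dkk2*, *Mdga2*, *Axin2*, *Cep112*, *Ptn*, *Nav2*, *Apcdd1*, *Gm20275* and *Zbtb7c*. Among them, *Mdga2* went from 3.65 to 1.35 and from 2.71 to 1.28. The Wnt target *Axin2* went from 1.51 to 0.708 and from 1.36 to 0.640, and the Wnt modulator *Dkk2* from 1.73 to 0.759 and from 1.36 to 0.480. *Apcdd1* is a Wnt target as well. The stem cell marker *Lgr5* went from 0.605 to 0.219 and from 0.582 to 0.400.

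Of the other 6 genes compared in the same way, *Pycard* was the only one at least 1.5-fold higher in *Gsdmc*-positive cells of both libraries, with 0.634 against 1.52 in the *Mir34a* F/F library and 0.522 against 0.907 in the *Mir34a* ΔMye library. *Gsdmd* was at 1.77 and 1.74 in cells without and with *Gsdmc* of the *Mir34a* F/F library and at 1.28 in both kinds of cells of the other. Genes of the epithelial response to type 2 cytokines showed no common direction. *Il13ra1*, a receptor chain for interleukin-13, was 0.457 without and 0.607 with *Gsdmc* in the *Mir34a* F/F library and 0.460 and 0.693 in the other, whereas the antimicrobial *Ang4* was 0.804 and 0.388, then 0.762 and 0.880.

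Across the 16 means of 8 clusters in 2 libraries, the genes most like the *Gsdmc* sum among 5211 compared were *Muc3* (Pearson r of 0.92), *Fxyd4* (0.91), *Car1* (0.91), *Lgals3* (0.91) and *Vipr1* (0.90). These are correlations of log2 levels over clusters that share libraries, and they describe the pattern only.

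*Gsdmd*, the main substrate of the inflammatory caspases, was highest in epithelial cells, at 1.75 (1.71 to 1.79) and 1.28 (1.25 to 1.31). The log2 ratio was −0.45 (−0.50 to −0.40), which lies short of 1.5-fold. No other cell type with more than 200 cells in each library exceeded 0.690 in either. Within the epithelium its level ran from 4.06 and 3.35 in the differentiated colonocyte-like cluster 1 down to 0.349 and 0.318 in cluster 6, and 0.689 and 0.518 in the stem-like cluster. In the *Sycn*-led cells with the highest *Gsdmc* level, *Gsdmd* was at 2.42 and 1.93. Over the 22 means of 11 cell types in 2 libraries, the genes most like *Gsdmd* of 7050 were *Lad1* (r of 0.94), *Cdhr5*, *Parm1*, *Duoxa2* and *Baiap2l1* (0.91), of which *Cdhr5* is a cadherin of the brush border.

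*Gsdme* was distributed differently. It was highest in mast cells (0.379 and 0.277) and in the few basophils (0.471 and 0.272, from 10 UMIs each), and these cell types could not be ordered. In epithelial cells it was at 0.117 (0.107 to 0.128) and 0.0680 (0.0596 to 0.0772), a log2 ratio of −0.79 (−1.01 to −0.56). There it was highest in the *Ptn*-led cluster 6 (0.319 and 0.165) and lowest in clusters 1 and 3, of which cluster 3 was led by mitochondrial genes and had a median mitochondrial share of 46.3% and median depths of 1834 and 3891 UMIs, with 0.134 and 0.0657 in the stem-like cluster. It was lower in the *Mir34a* ΔMye library in 8 of 8 clusters.

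**Figure D3:**
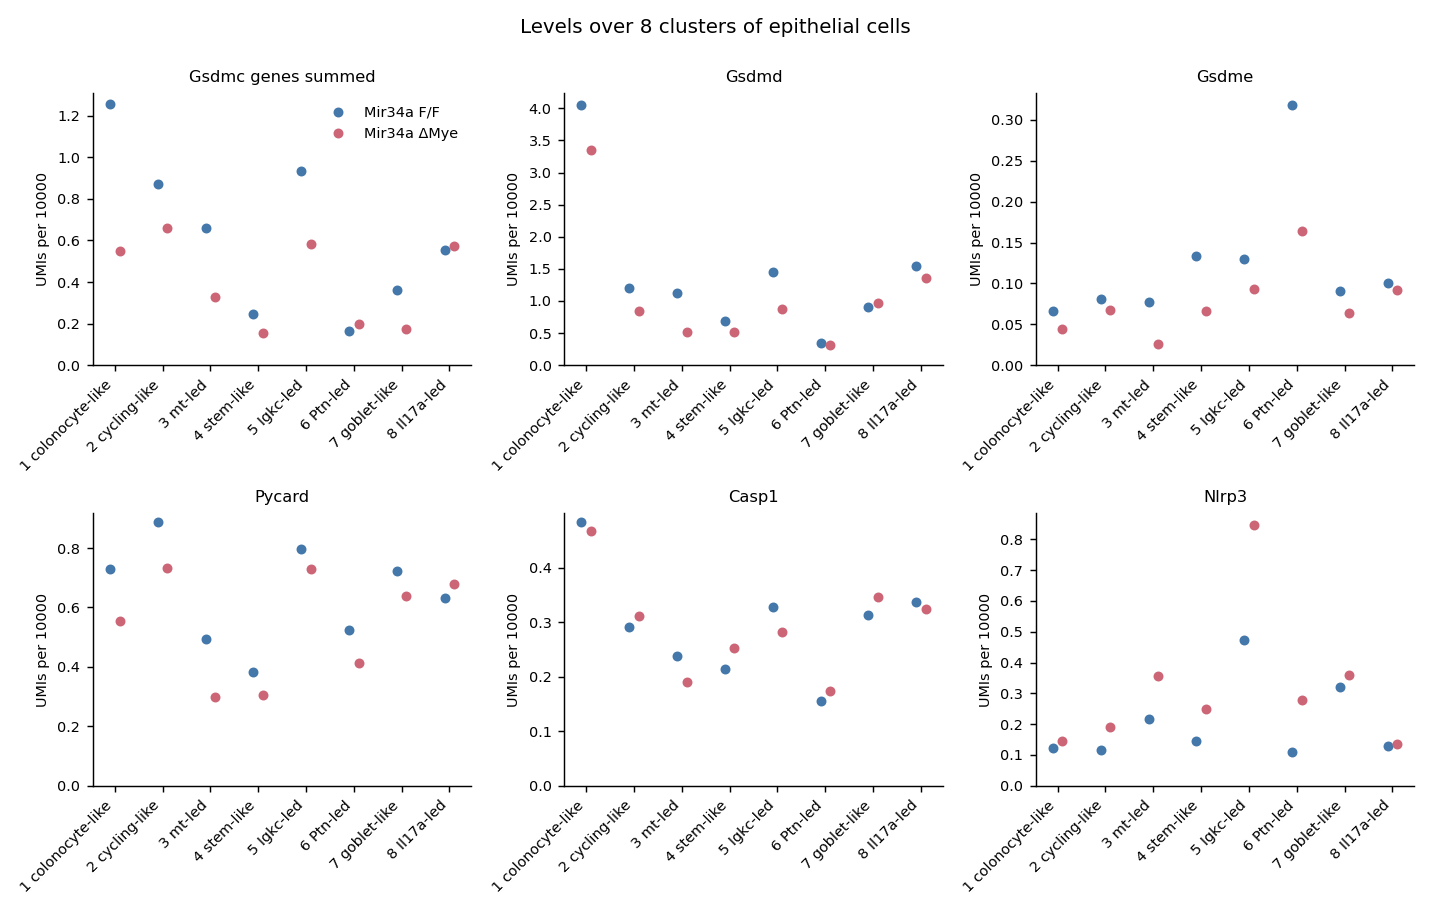
Level (y axis, UMIs per 10000) of the summed *Gsdmc* copies and of *Gsdmd*, *Gsdme*, *Pycard*, *Casp1* and *Nlrp3* in 8 clusters of epithelial cells (x axis), *Mir34a* F/F in blue and *Mir34a* ΔMye in red. *Gsdmd* ran from 4.06 in cluster 1 to 0.349 in cluster 6 of the *Mir34a* F/F library, while *Gsdme* was highest, 0.319, in cluster 6.

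The inflammatory caspases differed in breadth. Among cell types with more than 200 cells per library, *Casp1* ran from 0.308 (0.292 to 0.325) and 0.305 (0.288 to 0.322) in epithelial cells to 0.162 and 0.115 in mast cells, and in macrophages it was at 0.255 and 0.271. In neutrophils it was at 0.185 (0.144 to 0.234) and 0.280 (0.237 to 0.328), a log2 ratio of 0.59 (0.18 to 1.03), which reached 1.5-fold here but not with UMIs summed over cells (0.35) or a pseudocount of 0.1 (0.41). The mean of epithelial cells was above that of macrophages in both libraries, without regard to counting error. Macrophages, dendritic cells and neutrophils could not be put in an order, since the values of the libraries overlapped.

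*Casp4*, the sensor of lipopolysaccharide, was highest in neutrophils in both libraries, at 2.83 (2.65 to 3.02) and 4.47 (4.30 to 4.65), a log2 ratio of 0.66 (0.55 to 0.77). T cells followed with 1.34 and 1.84 and macrophages with 1.26 and 1.5, beside the fewer fibroblasts, basophils and endothelial cells, and neighbours in this order overlapped. In T cells the log2 ratio was 0.46 (0.36 to 0.56) and in macrophages 0.26 (0.15 to 0.36). In epithelial cells the level was 0.777 and 0.797, with a ratio of 0.04 (−0.04 to 0.11). The share of cells with a UMI after thinning was 21.2% (18.8 to 23.9) and 30.1% (27.4 to 33.0) in neutrophils.

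*Nlrp3* marked granulocytes and macrophages. Basophils had 11.1 (9.42 to 12.9) and 12.2 (10.9 to 13.7) on 48 and 40 cells, neutrophils 6.33 (6.06 to 6.60) and 11.6 (11.4 to 11.9) and macrophages 3.61 (3.5 to 3.72) and 4.47 (4.38 to 4.56). Dendritic cells had 0.838 and 1.10. Neutrophils could not be ordered against basophils but exceeded macrophages in both libraries. The annotated basophils also contained neutrophil mRNAs, with *S100a8*, *S100a9*, *Csf3r* and *Cxcr2* at 22.9% to 39.2% of the neutrophil level, whereas *Nlrp3* was at 175% and 105% of it and *Casp4* at 36.2% and 46.8%.

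In neutrophils the log2 ratio of *Nlrp3* was 0.88 (0.81 to 0.95), and in macrophages it was 0.31 (0.26 to 0.36). After thinning, 40.0% (36.9 to 43.0) and 56.7% (53.7 to 59.7) of neutrophils and 27.2% (25.3 to 29.1) and 30.5% (28.7 to 32.3) of macrophages had an *Nlrp3* UMI. Neutrophil marker mRNAs did not move as one in these cells: *S100a8* was 610 and 426, *S100a9* 866 and 529, *Csf3r* 3.72 and 6.13 and *Cxcr2* 1.76 and 2.58. The epithelial marker *Krt8* was 11.2 and 6.05 in neutrophils. The part of these shifts in the result for *Nlrp3* was not tested.

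Within neutrophils, *Nlrp3* and *Casp4* were higher in the *Mir34a* ΔMye library in 5 of 5 clusters with at least 50 cells per library. In cluster 1, led by *Retnlg* and *Mmp8*, *Nlrp3* was at 8.02 and 14.9 and *Casp4* at 3.43 and 5.24. In cluster 2, led by *Gpnmb* and *F10*, the values were 8.08 and 12.7 for *Nlrp3* and 3.05 and 4.53 for *Casp4*. Cluster 3, which was led by epithelial genes such as *Saa1*, had the lowest values among these clusters, 3.32 and 6.68 for *Nlrp3*. At a resolution of 1.0, a cluster of 61 and 116 neutrophils led by *Il23a*, *Tnf*, *Ccl4* and *Ccl3* reached 11.6 and 19.4 for *Nlrp3* and 5.37 and 6.73 for *Casp4*. At that resolution *Nlrp3* was higher in 7 of 7 clusters and *Casp4* in 6 of 7, the exception having 2.22 and 2.20. After thinning, 23.9% (19.9 to 28.3) and 33.4% (29.7 to 37.3) of neutrophils with *Nlrp3* had *Casp4*, against 19.5% and 25.8% of those without, given without intervals. Both were found in 98 and 204 cells, where independent detection would give 87.1 and 184. Both genes also varied over the clusters, and the part of this in their joint detection was not tested.

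Within macrophages, *Nlrp3* was higher in the *Mir34a* ΔMye library in 7 of 8 clusters with at least 50 cells per library. Among these clusters it was highest in cluster 6, led by *Ccl22* and *Ccr7*, in the *Mir34a* F/F library (4.90 and 6.33) and in cluster 2 in the other (4.23 and 6.48). It was lowest, 1.02 and 0.916, in cluster 3, which was led by immunoglobulin genes and was shallow. *Casp4* was highest in cluster 5 (2.17 and 2.86), led by *Plcb1*. *Pycard* had its highest mean over the cells of both libraries in the monocyte-like cluster 1, led by *Ly6c2* and *Chil3*, with 1.28 and 1.54, but in the *Mir34a* F/F library it was higher in cluster 3 (1.52 and 1.04).

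**Figure D4:**
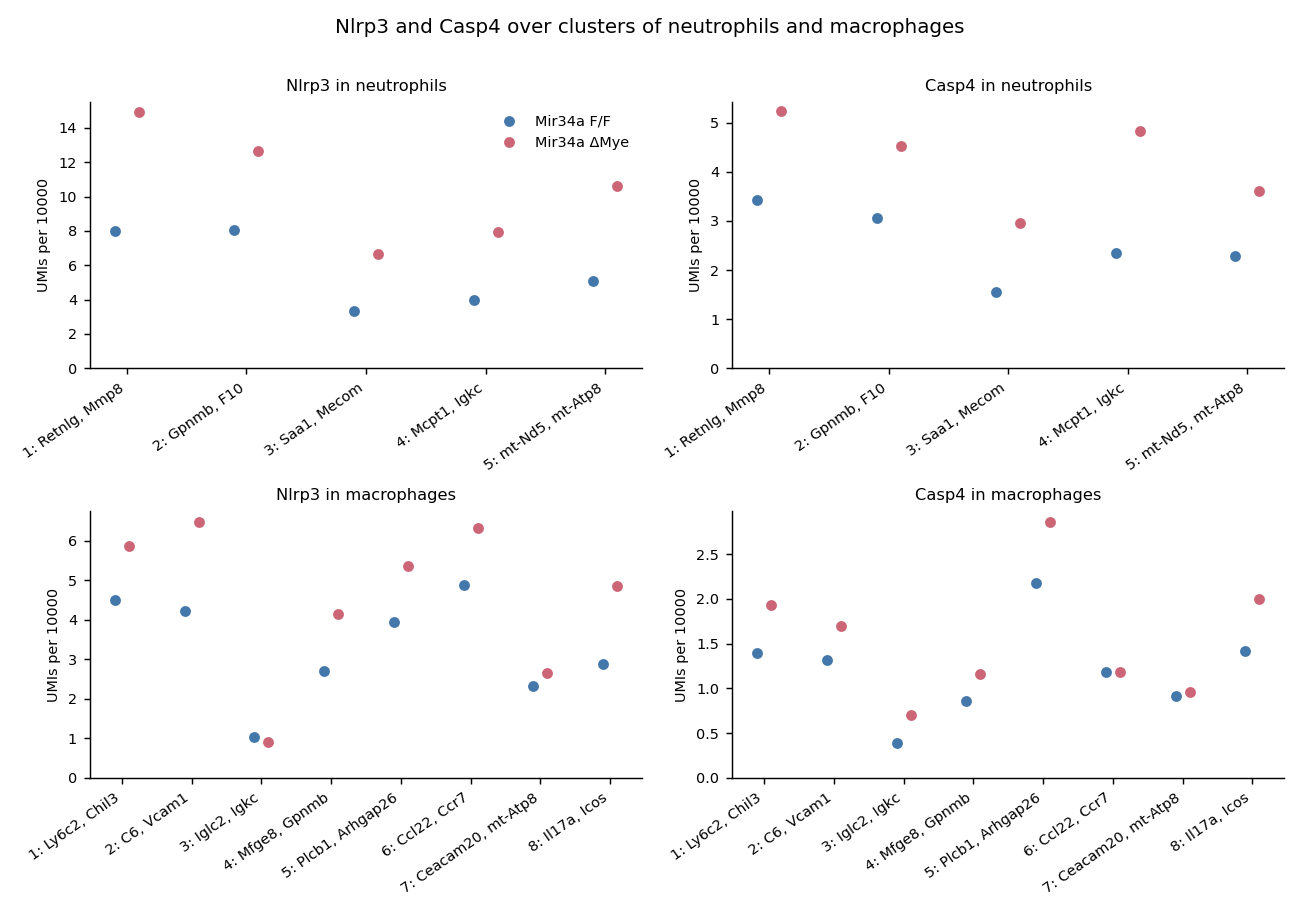
*Nlrp3* (left) and *Casp4* (right) over clusters of neutrophils (top) and macrophages (bottom), named by 2 leading genes each, as UMIs per 10000 (y axis), *Mir34a* F/F in blue and *Mir34a* ΔMye in red. In neutrophils the red point lies above the blue one in 5 of 5 clusters, for *Nlrp3* in cluster 1 at 14.9 against 8.02.

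In epithelial cells *Nlrp3* was low, at 0.168 (0.153 to 0.184) and 0.350 (0.325 to 0.376), yet its log2 ratio of 1.06 (0.89 to 1.23) was the largest of the 8 genes compared there. These levels were 2.66% and 3.01% of those in neutrophils and 4.65% and 7.84% of those in macrophages. Macrophage markers were present in epithelial cells at these shares of their macrophage level: *Csf1r* at 3.90% and 5.36%, *C1qa* at 5.57% and 7.39%, *Adgre1* at 3.83% and 6.26% and *Cd68* at 7.45% and 7.51%. *Nlrp3* in the *Mir34a* ΔMye library lay above all of these. The neutrophil markers *S100a8*, *S100a9*, *Cxcr2* and *Csf3r* were at 0.61% to 1.57% of their neutrophil level, below the share of *Nlrp3*. The summed macrophage markers were at 1.15 and 1.76 and the summed neutrophil markers at 9.78 and 10.2 in epithelial cells, and none was at 0. In the cluster 5 led by immunoglobulin genes, which held 680 and 1860 cells, *Nlrp3* was at 0.472 and 0.848 and the summed macrophage markers at 3.08 and 4.12. The summed neutrophil markers went the other way there, at 35.1 and 27.5. *Nlrp3* was higher in the *Mir34a* ΔMye library in 8 of 8 clusters. At a resolution of 1.0 it was higher in 12 of 14 clusters. The exceptions had 0.171 and 0.162, and 0.840 and 0.828, the latter being the cluster with the highest mean over both libraries. Without the immunoglobulin-led cluster 5 named above, the log2 ratio was 0.65. The level in T cells (0.194 and 0.241) was above that in epithelial cells in the *Mir34a* F/F library. The part of myeloid mRNA in the epithelial values was not tested.

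*Pycard* was spread over myeloid, lymphoid and epithelial cells. Dendritic cells had 0.901 (0.765 to 1.05) and 1.11 (1.01 to 1.22), macrophages 1.02 (0.965 to 1.08) and 0.979 (0.931 to 1.03) and B cells 0.767 (0.686 to 0.856) and 1.19 (1.13 to 1.25), and these could not be put in an order. In B cells the log2 ratio was 0.63 (0.46 to 0.81), passed 1.5-fold under 6 of 9 alternatives and ran from 0.46 to 2.87 over them, where the median UMI count of a cell was 3664 in one library and 20852 in the other. In epithelial cells it was −0.28 (−0.37 to −0.20), beside a median of −0.22 over all genes. Epithelial levels were 0.888 and 0.732 in cluster 2, 0.495 and 0.298 in the mitochondrial cluster 3 and 0.382 and 0.307 in the stem-like cluster, and reached 2.17 and 1.64 in the small cluster with the highest *Gsdmc* level per cell. Genes most like *Pycard* over the 22 means were *Ms4a4c* (r of 0.86), *Snx5*, *Slamf7*, *Cd83* and *Zmiz2*. For *Nlrp3* they were *Osm* (0.96), *Olr1*, *Clec4e*, *Litaf* and *Cxcl2*.

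Counted over the genes, 8 of the 10 were compared in each of 7 cell types. In epithelial cells 1 of 8 was higher (*Nlrp3*) and 3 were lower (*Gsdmc2*, *Gsdmc4* and *Gsdme*), where 1.69% and 4.87% of 11139 genes were higher and lower. The median log2 ratio was −0.36 for the 8 genes and −0.22 for all. In neutrophils 3 were higher (*Casp1*, *Casp4* and *Nlrp3*) and 2 lower (*Gsdmc2* and *Gsdmc4*), beside 5.47% and 14.8% of all genes. The counting intervals of *Gsdmc2* (−1.36 to 0.087) and *Gsdmc4* (−1.33 to 0.0030) reached past 0, and they passed 1.5-fold under 5 of 8 and 4 of 9 alternatives, with *Gsdmc4* at 0.019 after thinning. In macrophages none reached 1.5-fold, beside 1.87% higher and 4.67% lower of all genes, with medians of −0.14 for the 8 and −0.06 for all. Myeloid cells are where the deletion was aimed, and neutrophils and macrophages gave different counts, a difference that was not tested.

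In the remaining cell types the lower genes were mostly those set beside epithelial markers above. In dendritic cells *Gsdmc2* and *Gsdmc4* were lower (9.59% of all genes lower and 6.66% higher), in mast cells also *Gsdmd* (17.9% and 4.57%), and in T cells *Gsdmc2* and *Gsdmd* (10% and 1.64%). In B cells 4 were lower, *Gsdmc2*, *Gsdmc4*, *Gsdmd* and *Gsdme*, and *Pycard* was higher (28.1% and 4.13%). Of these, *Gsdmd* in mast cells and *Gsdmc4* in dendritic cells passed 1.5-fold under 3 of 8 alternatives each, and *Gsdmc4* and *Gsdme* in B cells under 4 of 8 each. The counting interval of *Gsdmc4* reached past 0 in dendritic cells (−1.79 to 0.46) and in B cells (−1.54 to 0.053).

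**Figure D5:**
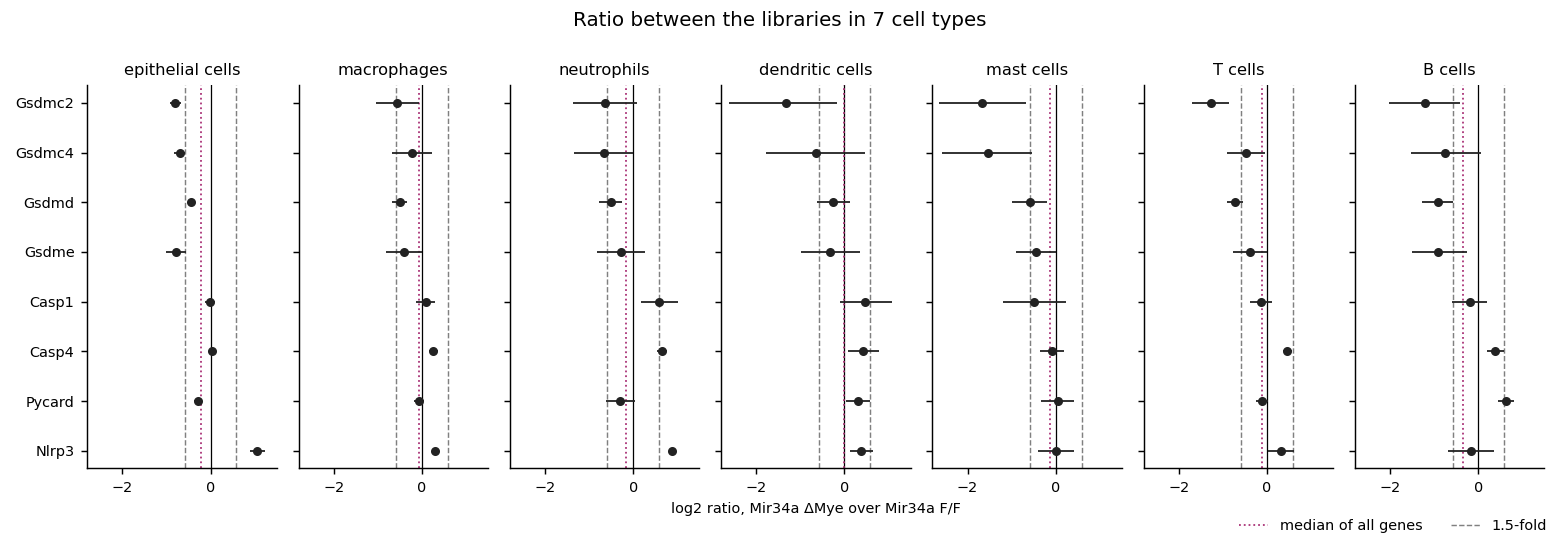
Log2 ratio of *Mir34a* ΔMye over *Mir34a* F/F (x axis) for the 8 compared genes (y axis) in 7 cell types, with 95% counting intervals. Dashed lines mark 1.5-fold and the dotted line the median of all genes of the cell type. *Nlrp3* lies at 1.06 in epithelial cells and 0.88 in neutrophils, *Casp4* at 0.66 in neutrophils.

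The other genes of the pathway were taken from 7 lists with 46 genes, of which 45 were in the table. In epithelial cells 34 could be compared, and 2 were higher and 0 lower, where 1.69% and 4.87% of all genes were. In macrophages 4 of 32 were higher and 0 lower (1.87% and 4.67% of all genes), in neutrophils 10 of 33 higher and 0 lower (5.47% and 14.8%), and in dendritic cells 6 of 31 higher and 3 lower (6.66% and 9.59%). In the other cell types with more than 200 cells per library none was higher, with 11 of 29 lower in B cells (28.1% of all genes), 2 of 28 in mast cells (17.9%) and 1 of 31 in T cells (10%). The median log2 ratio of the lists together was 0.14 in neutrophils beside −0.16 for all genes, −0.14 in epithelial cells beside −0.22 and −0.50 in B cells beside −0.34.

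Of the cytokines released through gasdermin pores, *Il1b* and *Il1a* had their highest means in myeloid cells. *Il1b* was at 24.8 and 44.5 in neutrophils, a log2 ratio of 0.84, and at 24.7 and 23.2 in macrophages. *Il1a* in neutrophils was at 2.06 and 3.18 (0.63). *Il18*, the cytokine of the epithelium in this group, was highest in epithelial cells, with 0.526 and 0.476. In epithelial cells, *Il1b* was at 1.02 and 1.58 (0.62), beside 1.04 and 1.10 in T cells.

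The other sensors were not confined to myeloid cells. *Aim2*, a DNA sensor, was at 1.17 and 1.02 in epithelial cells and at 1.20 and 1.13 in T cells. *Naip1*, a sensor of bacterial secretion needles, was highest in epithelial cells (0.845 and 0.765), as was *Nlrc4*, its partner (0.674 and 0.570), while *Naip2* was highest in macrophages (0.881 and 0.649). Of the 9 sensors compared in neutrophils 3 were higher in the *Mir34a* ΔMye library (5.47% of all genes), of the 9 in epithelial cells 1 (1.69%) and of the 9 in macrophages none (1.87%). Sensors were lower in B cells (5 of 6, beside 28.1% of all genes), mast cells (1 of 6, 17.9%) and dendritic cells (1 of 8, 9.59%).

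Among sensor partners and guanylate-binding proteins, which open bacteria to caspase-11, 3 of 7 were higher in neutrophils, 2 of 7 in macrophages and 4 of 7 in dendritic cells, where 1 was lower. The shares of all genes that were higher there were 5.47%, 1.87% and 6.66%, and 9.59% were lower in dendritic cells. In B cells 1 of 7 was lower, beside 28.1% of all genes. *Gbp7* was at 0.12 and 0.275 in neutrophils (log2 ratio 1.19), 0.5 and 0.811 in macrophages (0.70) and 0.160 and 0.332 in dendritic cells (1.05). The ATP-gated ion channel *P2rx7*, which acts upstream of NLRP3, was at 1.04 and 1.19 in macrophages and 1.38 and 1.56 in mast cells.

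Of the proteases that cut gasdermins and other caspases, 2 of 5 were higher in neutrophils (5.47% of all genes), 1 of 4 in macrophages (1.87%), 1 of 4 in dendritic cells (6.66%) and 0 of 5 in epithelial cells (1.69%), and 1 of 4 was lower in B cells (28.1%). So few genes allow no comparison with these shares. *Casp8*, which can cut gasdermin D and gasdermin C, was at 1.06 and 0.760 in epithelial cells (−0.47). *Gzmb* (granzyme B) was at 17.3 and 8.54 in basophils and 1.20 and 1.26 in T cells. *Ninj1*, which ruptures the membrane after pore formation, was highest in macrophages (1.74 and 1.48) and neutrophils (1.44 and 1.78), and *Chmp4b*, a subunit of the membrane repair complex, was at 2.92 and 2.26 in epithelial cells. Of the 3 rupture and repair genes, 1 was lower in B cells (28.1% of all genes), and none reached 1.5-fold in the other cell types with more than 200 cells per library. Of 6 genes of the type 2 response compared, none reached 1.5-fold in epithelial cells (1.69% of all genes higher and 4.87% lower) or neutrophils (5.47% and 14.8%). In macrophages (1.87%) and dendritic cells (6.66%) 1 was higher, and 2 were lower in B cells (28.1%) and 1 each in mast cells (17.9%) and T cells (10%). The one further gasdermin that could be compared, *Gsdma*, was at 0.149 and 0.0994 in epithelial cells, a log2 ratio of −0.58.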

How the data were processed

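As the authors describe, reads of 3′ libraries were aligned to mm10 and turned into UMI counts by Cell Ranger 7.2.0 (whether intron reads were counted is not given in the sources used here), cells were filtered and doublets were removed with Scrublet. The authors deposited normalised values on a natural log scale, ln(1 + x) with x in UMIs per 10000. Undoing the log gave whole UMIs for 96847573 values, within 1.49e-10.

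Levels were means over cells. Poisson and binomial intervals at 95% were exact for sums and shares. For means and their ratios, UMIs were weighted as in the mean (an effective number of UMIs), because on simulated data widths from plain sums, as first planned, were too narrow. Epithelial cells, macrophages and neutrophils were clustered with scanpy 1.11.5 on 2000 variable genes, centred within each library, with 30 components, 15 neighbours and a resolution of 0.5. Clusters were named from fixed markers. Coordinates and sequences are from mm10 with its GENCODE annotation.

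The genes and lists were chosen with earlier results of these data known. Named genes are the 10 genes, at most 4 per pathway list (those with the highest mean), the 5 most alike and the 10 leading genes of *Gsdmc*-positive cells in each direction. Leading genes of clusters were named after their values were seen. Alternatives were summed UMIs, a pseudocount of 0.1, thinning, stricter cells, another denominator, subtraction of T cells, centring on all genes, 2-fold, no filter and other clusterings.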

Additional observations from a re-analysis of the deposited data

How the results depend on the processing

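No paired analysis was possible because there is 1 library per genotype, and for the same reason no replicate could be left out. The alternatives without shared barcodes, centred on all genes and without the immunoglobulin-led cluster were chosen after seeing the data. Of 523 single ratios under the alternatives, 438 stayed within the counting interval of the reported value and 83 moved beyond it. The other 2 had reached 1.5-fold and changed sign, *Gsdmc4* in neutrophils after thinning (0.019) and the *Gsdmc* sum in neutrophils after subtracting the T cell mean (0.55). Changes of sign among ratios short of 1.5-fold were not counted. The cause of these shifts was not tested. The log2 ratio of the *Gsdmc* sum in epithelial cells was −1.02 with UMIs summed over cells, −0.62 with a pseudocount of 0.1, −0.82 in cells with at least 500 mRNAs and under 10% mitochondrial UMIs, −0.43 with the other denominator, −0.62 after subtracting the T cell mean and −0.51 centred on the median of all genes.

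The counts of genes past 1.5-fold moved as follows. With summed UMIs, macrophages had 1 higher and 2 lower and neutrophils 1 lower. With the pseudocount, epithelial cells had 1 lower, neutrophils 0 and dendritic cells 0. After thinning, macrophages had 2 lower, neutrophils 1 lower and dendritic cells 2 higher and 0 lower. In the stricter cells, macrophages had 1 lower and dendritic cells 0, and with under 25% mitochondrial UMIs dendritic cells had 1 lower. With the other denominator, epithelial cells had 0 lower, neutrophils 0 and dendritic cells 1. After subtracting T cells, epithelial cells had 0 higher and 1 lower, macrophages 2 higher, neutrophils 1 lower and dendritic cells 1 higher and 0 lower, and 11 of 19 ratios were positive in place of 18 of 56. Centred, epithelial cells had 1 lower and neutrophils 0. At 2-fold, epithelial cells had 0 lower, neutrophils 0 higher and 0 lower and dendritic cells 1 lower. Without a filter, macrophages and dendritic cells each had 1 higher.

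The share of epithelial cells with a *Gsdmc* UMI was 9.67% and 6.74% at 2000 UMIs, 20.1% and 17.0% without thinning, and 5.77% and 4.82% in the stricter cells. The highest cluster level, over both libraries, of the *Gsdmc* sum was 0.954 and became 3.43 at a resolution of 1.0 and 3.94 without centring. The same values were 3.76, 4.69 and 3.92 for *Gsdmd*, 11.3, 16.7 and 14.1 for *Nlrp3* in neutrophils and 4.30, 6.26 and 5.29 for *Casp4* in neutrophils. Across the alternatives that gave a value, *Nlrp3* (0.84 to 1.04) and *Casp4* (0.64 to 0.82) in neutrophils stayed past 1.5-fold.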
